A study of Mus musculus with 6 samples.

Results

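Cytosolic ribosomal protein genes encode the proteins of the large and the small ribosomal subunit. They were read here in hematopoietic stem cells (HSCs) of adult mice on 6 single-colour arrays, 3 from PU.1 ki/ki and 3 from WT animals. Members were the probe sets (groups of oligonucleotide probes for a transcript) whose only annotated symbol began with Rpl or Rps and a digit, or was Rpsa, Rplp0, Rplp1 or Rplp2. Symbols of S6 kinases, of Rps19bp and of pseudogenes were left out. The rule found 105 of 45037 probe sets, for 49 genes. Of these, 48 probe sets of 26 genes belonged to the large and 57 of 23 genes to the small subunit. A further 110 probe sets were annotated to a ribosomal protein gene together with other genes, mostly pseudogenes. They were not counted as members, so genes such as Rpl3, Rpl5 and Rplp1 have no value below.

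PU.1 is the ETS-family transcription factor encoded by Spi1, and the series title names PU.1 autoregulation and how adult HSCs proliferate. The PU.1 ki/ki mice were homozygous for a knock-in at this gene, whose construct is not given in the sources used here, and the reference was wild type. All cells were sorted as lin-sca1+ckit+CD150+CD48-, a gate for long-term HSCs. The age label and the series title say adult, while a free-text description on the samples speaks of early embryos. That description was set aside, because tissue, source and genotype labels all name sorted HSCs or mice of these genotypes. Whether the replicates came from separate animals or from pools is not given in the sources used here, so the spread behind each p may be technical. In such bulk samples, fewer cells of a type and less RNA per cell cannot be told apart.

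Each ribosome holds a single copy of most of these proteins, and their genes are transcribed in concert in nearly every cell. The mRNAs start with a run of pyrimidines, the 5' terminal oligopyrimidine (TOP) tract, through which mTOR signalling controls their translation. In blood, loss of a copy of several of these genes causes Diamond-Blackfan anaemia in humans, and free RPL5 and RPL11 bind MDM2 and raise p53. Blood stem cells are known for a low rate of protein synthesis.

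Start-site windows of several genes among those with the largest positive statistics, and of Rps6, are shown because PU.1 binds the GGAA core shared by ETS factors. The sequences are RefSeq promoter windows of build GRCm38.p6, which held 51 windows for 43 of the 49 genes. Of each, 100 bases before and 20 from the annotated start are printed, and capitals mark CGGAAG on either strand. Other GGAA cores, such as those in the Rpl6 window, are left in lower case.
Rpl6, chr5:121204401-121204520, plus strand: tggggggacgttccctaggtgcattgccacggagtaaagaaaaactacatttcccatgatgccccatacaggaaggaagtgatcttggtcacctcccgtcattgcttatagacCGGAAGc
Rpl37a, chr1:72711160-72711279, plus strand: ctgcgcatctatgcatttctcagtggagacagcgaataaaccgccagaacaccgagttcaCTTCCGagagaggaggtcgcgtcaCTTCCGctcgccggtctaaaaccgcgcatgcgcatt
Rpl10a, chr17:28328371-28328490, plus strand: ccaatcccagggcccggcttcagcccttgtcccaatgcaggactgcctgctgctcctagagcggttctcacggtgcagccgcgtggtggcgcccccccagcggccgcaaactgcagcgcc
Rpl10a, chr17:28328465-28328584, plus strand: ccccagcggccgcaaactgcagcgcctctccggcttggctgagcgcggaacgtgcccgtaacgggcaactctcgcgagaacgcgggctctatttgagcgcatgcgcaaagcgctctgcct
Rps7, chr12:28635934-28636053, minus strand: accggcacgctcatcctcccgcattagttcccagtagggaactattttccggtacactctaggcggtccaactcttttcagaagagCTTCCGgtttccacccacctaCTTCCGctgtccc
Rps15, chr10:80292331-80292450, plus strand: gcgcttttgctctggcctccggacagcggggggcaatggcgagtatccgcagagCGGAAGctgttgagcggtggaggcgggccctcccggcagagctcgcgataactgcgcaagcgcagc
Rps3, chr7:99483690-99483809, minus strand: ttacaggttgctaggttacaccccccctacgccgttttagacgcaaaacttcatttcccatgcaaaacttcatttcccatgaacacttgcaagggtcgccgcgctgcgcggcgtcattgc
Rps6, chr4:86857348-86857467, minus strand: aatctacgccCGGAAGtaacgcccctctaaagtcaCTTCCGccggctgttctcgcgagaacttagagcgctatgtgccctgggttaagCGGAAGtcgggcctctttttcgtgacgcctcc
In whole windows of 300 bases, CGGAAG was found on either strand in 31 of 51 ribosomal protein windows (60.8%), against 16.9% of 32851 windows of all genes. The longer PU.1-type word GAGGAAGT was in 2 of 51 (3.92%), against 3.2% of all. The pair cannot share a GGAA core, since the base before it differs. TATAAA was in 11.8%, against 13.6%. The pyrimidine word CTTTC, counted on the sense strand within 20 bases of the start, was in 23.5%, against 5.49%. CTTTC on either strand anywhere in the window was in 82.4%, against 57.3%. These are matches of letters, and no binding was measured. Rpl10a and Rps3 held no CGGAAG in the stretch shown, and Rps6 held 3. Of the genes with the lowest statistics, not shown, Rpl37 and Rpl41 held 2 in that stretch, and Rps28, Rps25 and Rps3a1 held 1. Rpl27, Rpl14, Rpl3l, Rps2 and Rps16 held 0. A link between the word and the differences was not tested.

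The PU.1 ki/ki arrays were more uniform than the WT arrays, which touches every comparison below. A probe set was counted as down on an array when the median over the other 5 arrays was 512 or more and exceeded its own value by 2-fold or more. PU.1 ki/ki replicates 1, 2 and 3 had 2.82, 2.86 and 3.37% of such bright probe sets down, against 7.94, 25 and 24.2% on WT replicates 1, 2 and 3. Spi1 read 170, 212 and 161 in PU.1 ki/ki HSCs, against 158, 195 and 199 in WT HSCs, a difference of -0.03 (limma adjusted p = 0.992). Since the place of its probe set relative to the knock-in is not given, this checks no label. Of 9 HSC markers listed, 7 were measured, and their summed intensity was 10124 to 12287 in PU.1 ki/ki and 8193 to 12987 in WT HSCs. Of these 7, 4 were higher and 3 lower (median 0.20). Slamf1, the CD150 of the gate, read 696, 1525 and 170 in PU.1 ki/ki HSCs, against 440, 54 and 42 in WT HSCs. Its groups overlapped (2.48, limma adjusted p = 0.655). Cd48, which the gate excludes, read 230, 90 and 290 against 704, 193 and 75 in WT HSCs, and overlapped too (-0.26). Neutrophil and monocyte markers, 8 of 9 measured, summed to 13349 to 18709 in PU.1 ki/ki and 16175 to 22336 in WT HSCs. Of these 8, 2 were higher and 6 lower (median -0.28), and S100a8 was lower without overlap (-0.45, limma adjusted p = 0.599). Sums of 4 of 7 listed erythroid markers were 256 to 268 in PU.1 ki/ki and 152 to 369 in WT HSCs. Of these 4, 1 was higher and 3 lower (median -0.37). Among them Klf1, an erythroid transcription factor, read 118, 123 and 159 in PU.1 ki/ki HSCs, against 42, 21 and 11 in WT HSCs. Klf1 was thus higher without overlap (2.57, limma adjusted p = 0.463). Its lowest WT value was next to the minimum of 10, so the size of that difference is uncertain. Hba-a1 was lower without overlap (-0.69, limma adjusted p = 0.595). The 5 megakaryocyte markers, 4 of them higher and 1 lower (median 0.71), summed to 1038 to 2456 in PU.1 ki/ki and 681 to 1591 in WT HSCs. The 5 measured of 6 B cell markers were all lower in mean (median -0.45) and summed to 303 to 347 in PU.1 ki/ki and 195 to 790 in WT HSCs, most of it from Cd79b. The 5 measured of 7 T and NK cell markers, 1 higher and 4 lower (median -0.67), summed to 302 to 412 in PU.1 ki/ki and 448 to 685 in WT HSCs, without overlap. Of these, Cd3e was lower without overlap (-1.25, adjusted p = 0.510). The part of these markers in the results below was not tested.

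No ribosomal protein probe set differed between PU.1 ki/ki and WT HSCs at an adjusted p under 0.05. As a group they read slightly higher in PU.1 ki/ki HSCs, with a median difference, log2 of PU.1 ki/ki over WT, of 0.16 over the 26 large subunit genes and 0.24 over the 23 small subunit genes. The median over all 18193 named genes was 0.01. Each gene is represented here by its brightest probe set. Of the large subunit genes 20 were higher and 6 lower, and of the small subunit genes 20 and 3. Over all probe sets, 52.8% were higher and 47.2% lower. Among the 4713 probe sets with a mean intensity of at least 512, 61.5% were higher and the median was 0.14. The 76 ribosomal protein probe sets of that brightness had a median of 0.17, with 77.6% higher. Their median thus lay closer to that of bright probe sets than to that of all. By subunit, the bright median was 0.14 (75% higher) for the large and 0.25 (80% higher) for the small subunit. The large subunit median was near that of all bright probe sets, and the small subunit median was above it. With each array centred on its own median, the median of all probe sets was -0.105 in place of 0.002, and the large subunit median was 0.05, with 15 higher and 11 lower. The small subunit median was then 0.13, with 18 higher and 5 lower.

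The test was limma's moderated test over all 45037 probe sets with Benjamini-Hochberg adjustment. It called 0 of the 105 members, and 0% of all probe sets. At an unadjusted p under 0.05, limma gave 1 of 48 large subunit probe sets (2.08%) and 5 of 57 small subunit probe sets (8.77%), all higher in PU.1 ki/ki. Over all probe sets 8.28% reached that p, 4.6% higher and 3.68% lower. The share over all 105 members was 5.71%. The small subunit share was near 8.28% and the large subunit share below it. Set against the 4.6% that were higher, the small subunit share was above and the large subunit share below. These shares rest on 5 and 1 probe sets. The lowest adjusted p among members was 0.51.

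Without overlap between the 3 PU.1 ki/ki and the 3 WT values were 21 higher members (20%) and 5 lower (4.76%). The shares over all probe sets were 6.62% higher and 5.46% lower. Among bright probe sets of any gene they were 8.89% and 5.28%, against 25% and 5.26% of the bright ribosomal protein probe sets. By subunit, 7 of 48 large subunit probe sets lay wholly higher and 3 lower, and 14 of 57 small subunit probe sets higher and 2 lower. WT replicate 1 was the highest WT array in 15 of the 21, and in 1554 of all 2981 probe sets that lay wholly higher. Against WT replicate 1 alone, all 3 PU.1 ki/ki arrays read higher in 54 of 105 members (51.4%) and lower in 13 (12.4%). These shares were 25.4% and 26.1% over all probe sets. With a single WT array, that comparison holds no spread between WT arrays.

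**Figure D1:**
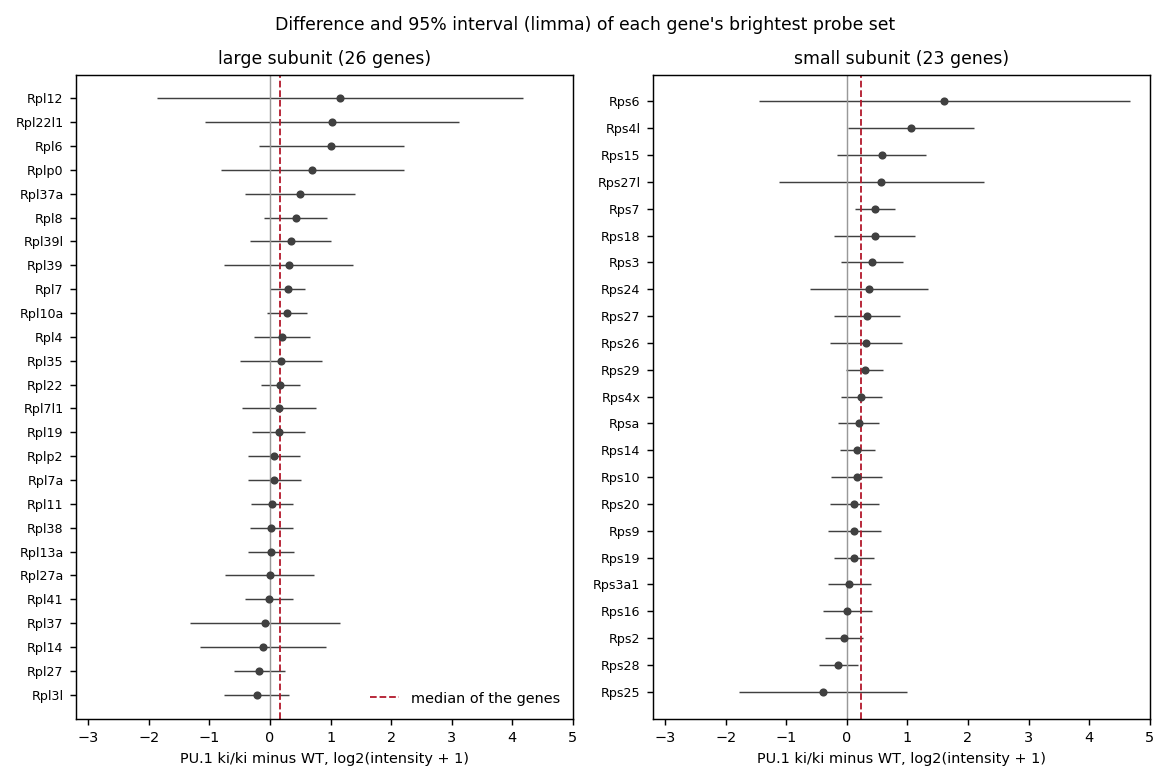
Differences of PU.1 ki/ki minus WT on the log2(intensity + 1) scale for the brightest probe set of each gene, with 95% intervals from limma (3 arrays per group), large subunit left and small subunit right. The dashed lines are the medians, 0.16 and 0.24, and the intervals of 2 genes, Rps7 and Rps4l, exclude 0.

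Array by array, the level of the subunits moved little. Relative to each gene's median over the 6 arrays, the large subunit stood at 0.01, 0.13 and 0.01 in PU.1 ki/ki HSCs, against -0.14, 0.03 and -0.10 on WT replicates 1, 2 and 3. The groups overlapped, since WT replicate 2 was above PU.1 ki/ki replicates 1 and 3. The small subunit stood at 0.00, 0.10 and 0.07 in PU.1 ki/ki HSCs, against -0.04, -0.09 and -0.17 on the WT arrays, with no overlap. These levels were not centred by array, and the median intensity of all probe sets was itself higher on the PU.1 ki/ki arrays. That median was 45, 46 and 46 there, against 43, 43 and 41 on the WT arrays. The small subunit gap was narrowest between PU.1 ki/ki replicate 1 (0.00) and WT replicate 1 (-0.04), whose array medians were 45 and 43. Whether the small subunit groups stay apart array by array after centring was not tested. The large subunit's level minus that of the small subunit came to 0.01, 0.04 and -0.05 for PU.1 ki/ki, and -0.10, 0.12 and 0.08 on the WT arrays. These overlapped, so no shift of one subunit against the other stood out from the spread between arrays. Ribosomal protein probe sets held 4.41, 4.59 and 4.50% of the summed intensity in PU.1 ki/ki HSCs, against 4.09, 4.33 and 4.28% in WT HSCs. This share was higher on all PU.1 ki/ki arrays than on any WT array.

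**Figure D2:**
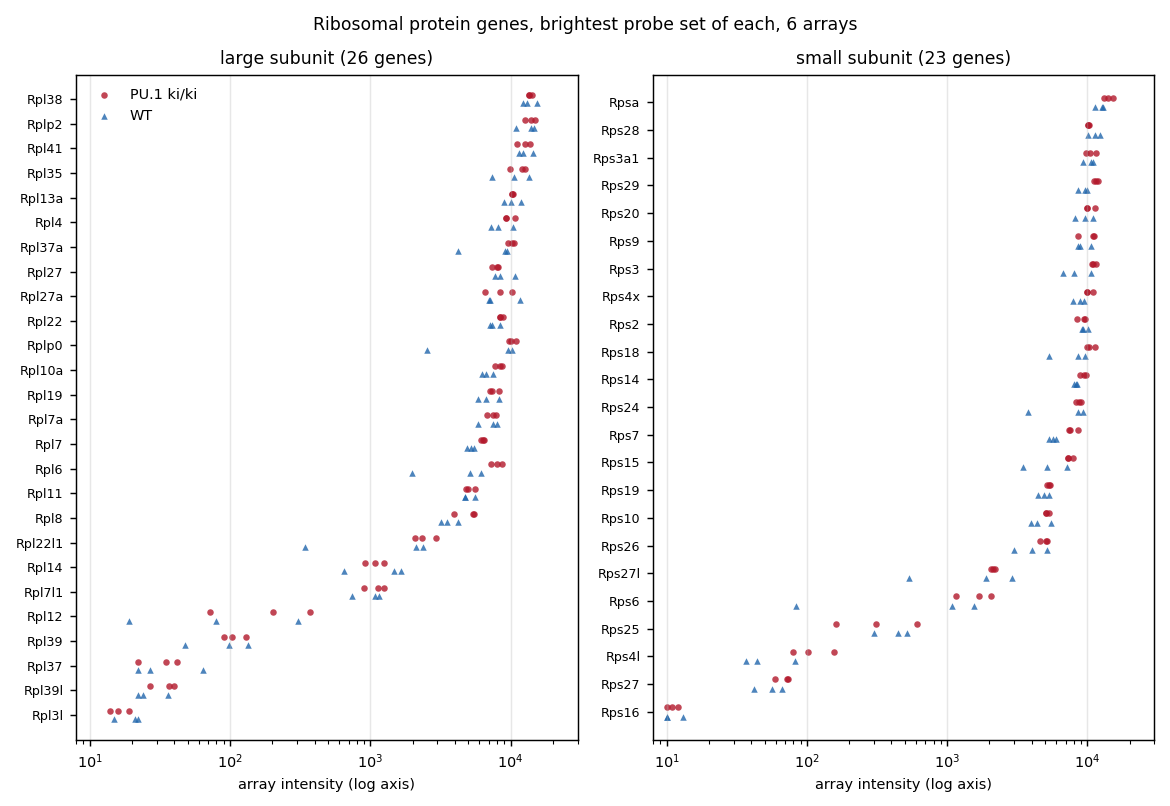
Array intensity on a log axis of the brightest probe set of each ribosomal protein gene, PU.1 ki/ki arrays as circles above WT arrays as triangles. Circles of a gene mostly lie close together, and single triangles lie far to the left, as for Rplp0, Rpl6 and Rps6.

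In the large subunit the proteins of the stalk, where elongation factors dock, did not separate. Rplp0, the base of the stalk, read 9739, 10882 and 10089 in PU.1 ki/ki HSCs, against 9598, 2542 and 10239 in WT HSCs. Only WT replicate 2 was low, and the difference of 0.70 ± 0.59 (SE, n = 3 each, limma adjusted p = 0.756) was 0.045 without that array. Rplp2, which hangs from it, read 13949, 14961 and 12676 against 10976, 14782 and 14012 in WT HSCs, overlapping (0.07 ± 0.17). Rpl12, beside the stalk base, was read by a dim probe set at 72, 201 and 371, against 80, 305 and 19 in WT HSCs. It overlapped and varied widely in both groups (1.16 ± 1.18).

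Rpl11, which with Rpl5 and 5S rRNA forms the particle that binds Mdm2, did not differ beyond the spread. It read 4839, 5567 and 4972 in PU.1 ki/ki HSCs, against 4749, 4747 and 5569 in WT HSCs (0.03 ± 0.14, 95% interval -0.32 to 0.38). Of 7 proteins lining the exit tunnel 4 were measured, Rpl4, Rpl19, Rpl35 and Rpl39. On each gene's brightest probe set their differences were 0.14 to 0.31, all overlapping between groups. Other bright probe sets of Rpl35 were higher by 0.18 and 0.77 without overlap (limma adjusted p = 0.724 and 0.657), or by 0.10 and 0.14 with overlap. Its dim probe set overlapped (-0.16).

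The 5 large subunit genes with the largest positive statistics were Rpl7, Rpl10a, Rpl6, Rpl8 and Rpl37a. Rpl7, an RNA-binding protein of the subunit's surface, read 6201, 6511 and 6336 in PU.1 ki/ki HSCs, against 4862, 5242 and 5506 in WT HSCs. The groups did not overlap (0.29 ± 0.12, adjusted p = 0.606). Rpl10a, of the L1 stalk that guides leaving tRNA, read 7773, 8340 and 8630 against 6625, 7492 and 6275 in WT HSCs, without overlap (0.28 ± 0.13, adjusted p = 0.639). With any 1 array left out, Rpl7 stayed at 0.24 to 0.33 and Rpl10a at 0.23 to 0.35. Rpl6 read 7249, 8043 and 8639 against 6144, 1967 and 5096 in WT HSCs, without overlap, and its 1.01 ± 0.47 (adjusted p = 0.639) was 0.51 without WT replicate 2. Rpl8, near the peptidyl transferase centre, read 3918, 5389 and 5476 against 3186, 4246 and 3541 in WT HSCs, and overlapped through PU.1 ki/ki replicate 1 (0.42 ± 0.20, adjusted p = 0.645). Rpl37a read 10181, 10522 and 9517 against 9428, 4228 and 9157 in WT HSCs, without overlap (0.49 ± 0.35, adjusted p = 0.721), and 0.12 without WT replicate 2.

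The other probe sets of these genes did not all point the same way. Another bright probe set of Rpl37a read 6036, 6851 and 6527 in PU.1 ki/ki HSCs, against 7011, 7593 and 7610 in WT HSCs, lower without overlap (-0.20, adjusted p = 0.687). Its dim probe set was lower too (-0.30). For Rpl7, a further probe set read 2145, 2143 and 2074 against 2476, 3366 and 2551 in WT HSCs, also lower without overlap (-0.39, adjusted p = 0.614). The remaining probe set of Rpl7 differed by 0.82, with 1631 on WT replicate 3. Higher and lower readings of the same gene, each without overlap, thus stood side by side for Rpl7 and Rpl37a.

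The large subunit genes with the largest negative statistics were small in difference and overlapped. Rpl27, mutated in some patients with Diamond-Blackfan anaemia, read 8196, 7968 and 7382 in PU.1 ki/ki HSCs, against 8372, 7783 and 10693 in WT HSCs (-0.18 ± 0.17, adjusted p = 0.777). Of its other probe sets, 1 differed by -0.05 and 1 by 0.50. Rpl14 (-0.12), Rpl37 (-0.08) and Rpl41 (-0.02) each changed sign under 2 of the 6 omissions of a single array. The brightest large subunit probe set was that of Rpl38, a protein needed for translation of Hox mRNAs in mouse embryos, at 13497, 14248 and 13607 against 12293, 15461 and 13115 in WT HSCs (0.02 ± 0.14). The dimmest was that of Rpl3l, the striated muscle paralog of Rpl3, at 14, 19 and 16 against 15, 21 and 22 in WT HSCs, close to the minimum of 10 on all arrays.

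In the small subunit, Rps7 had the largest positive statistic. Rps7, a rRNA-processing protein that also binds Mdm2, read 7520, 7343 and 8577 in PU.1 ki/ki HSCs, against 5722, 5334 and 5959 in WT HSCs. The groups did not overlap and no single array decided the value (0.46 ± 0.13, 95% interval 0.13 to 0.79, adjusted p = 0.51). It was 0.39 to 0.50 with any 1 array left out. The other probe set of Rps7 read 6372, 6027 and 5961 against 5598, 6205 and 7314 in WT HSCs, overlapping (-0.05).

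Rps29, a zinc-binding protein of the subunit's head, read 11128, 11827 and 11534 in PU.1 ki/ki HSCs, against 9914, 9621 and 8610 in WT HSCs, without overlap (0.30 ± 0.12, adjusted p = 0.607). Of its other probe sets, 1 overlapped at 0.06 and 1 read 1832 on WT replicate 3, against 10916 to 12551 on the other 5 arrays. Rps3, at the mRNA entry channel, read 11022, 11493 and 10833 against 10676, 8078 and 6738 in WT HSCs, without overlap (0.41 ± 0.20, adjusted p = 0.648). It was 0.26 to 0.59 with any 1 array left out. Its second bright probe set overlapped (0.03). Rps15, close to the decoding centre, read 7298, 7886 and 7264 against 7123, 5117 and 3469 in WT HSCs, without overlap (0.57 ± 0.29, adjusted p = 0.652), and 0.31 without WT replicate 3. Its other probe set overlapped (0.17). For both, WT replicate 1 lay just under the PU.1 ki/ki arrays, and WT replicates 2 and 3 were lower.

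The small subunit genes with the lowest statistics were Rps28, Rps25, Rps2, Rps16 and Rps3a1. The small subunit had 3 genes below 0, so this set includes Rps16 and Rps3a1 with differences of 0.01 and 0.04. Rps28, a small protein of the mRNA exit, read 10149, 10032 and 10249 in PU.1 ki/ki HSCs, against 10117, 12302 and 11256 in WT HSCs (-0.14 ± 0.13, adjusted p = 0.769). WT replicate 1 lay among the PU.1 ki/ki arrays, so the groups overlapped. Its other probe sets differed by 0.23 and -0.05. Rps2, of the mRNA channel, differed by -0.05 ± 0.12. Rps25, used by some viral mRNAs to recruit the subunit, was read by a probe set of 160, 610 and 310 against 446, 299 and 517 in WT HSCs (-0.39 ± 0.55). The only probe set of Rps16 read 10 to 13 on all 6 arrays, at or next to the table's minimum, so it gives no usable level of this abundant mRNA.

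For Rps6, whose protein is phosphorylated by the S6 kinases downstream of mTOR, a single array set the difference. It read 1153, 1676 and 2036 in PU.1 ki/ki HSCs, against 1082, 1541 and 83 in WT HSCs. The difference of 1.60 ± 1.20 (adjusted p = 0.730) was 0.29 without WT replicate 3. Rpsa, of the small subunit's back, had its brightest probe set at 13016, 14084 and 15160 against 12932, 12757 and 11233 in WT HSCs, without overlap by a narrow gap (0.20 ± 0.13, adjusted p = 0.707). Its dim probe set read 62, 82 and 61 against 45, 13 and 11 in WT HSCs (1.80, adjusted p = 0.550). The WT values of the dim probe set on replicates 2 and 3 were next to the minimum of 10, so the size of that difference is uncertain.

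Rps14, whose loss in human myelodysplasia with a deletion of the long arm of chromosome 5 contributes to the anaemia, read 9411, 8806 and 9802 in PU.1 ki/ki HSCs, against 8059, 8332 and 8449 in WT HSCs. The groups did not overlap and no array stood apart (0.17 ± 0.11, adjusted p = 0.700). The other probe set of Rps14 read 1934 on WT replicate 3 (0.88). Rps19, the gene most often mutated in Diamond-Blackfan anaemia, read 5120, 5433 and 5305 against 4411, 4883 and 5346 in WT HSCs, and overlapped (0.12 ± 0.13, adjusted p = 0.798). Of 18 genes listed as mutated in that disease 11 were measured, 9 of them higher and 2 lower. Their median of 0.18 was that of all 49 ribosomal protein genes (0.18), beside 0.01 over all named genes. None passed in limma, and 1 (9.09%), Rps7, reached an unadjusted p under 0.05, against 8.61% of all named genes. Rps24 (0.36 ± 0.38) and Rps26 (0.31 ± 0.23) overlapped. Rps24 was -0.05 without WT replicate 3, where its brightest probe set read 3783, against 8617 and 9259 on WT replicates 1 and 2. Another bright probe set of Rps24 read 7584, 7123 and 7790 against 6801, 5128 and 6483 in WT HSCs, without overlap (0.30, adjusted p = 0.660). Its remaining bright probe sets overlapped (0.45 and 0.59), as did its dim ones (0.91 and -0.14).

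X-linked Rps4x read 9968, 9975 and 10916 in PU.1 ki/ki HSCs, against 9469, 7832 and 8900 in WT HSCs, without overlap (0.24 ± 0.13, adjusted p = 0.667). Its paralog Rps4l, on a dim probe set, read 80, 156 and 101 against 37, 82 and 44 in WT HSCs. PU.1 ki/ki replicate 1 lay below WT replicate 2, so the groups overlapped (1.06 ± 0.41, adjusted p = 0.599).

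Of 9 listed paralogs of ribosomal proteins 6 were measured, with a median difference of 0.46, and 0 passed in limma. Rpl22l1, which stands in for Rpl22 in the ribosome and is held down by it in mouse cells, read 2919, 2351 and 2074 in PU.1 ki/ki HSCs, against 2365, 341 and 2115 in WT HSCs. Its 1.02 ± 0.82 (adjusted p = 0.742) was 0.12 without WT replicate 2. Rpl22 itself read 8458, 8769 and 8456 against 7089, 8460 and 7362 in WT HSCs, with a WT value of 8460 within the PU.1 ki/ki range (0.17 ± 0.13, adjusted p = 0.729). Its other probe sets differed by 0.02 and 0.08. Rps27l, a p53-induced paralog of Rps27, read 2132, 2048 and 2177 against 1883, 531 and 2897 in WT HSCs (0.57 ± 0.66, adjusted p = 0.812), and -0.14 without WT replicate 2. Its other probe sets differed by -0.26 and 0.42. Rpl7l1 differed by 0.15 ± 0.24 on its brightest probe set, and its dimmest, at 361, 281 and 265 against 224, 138 and 203 in WT HSCs, did not overlap (0.70, adjusted p = 0.585). The testis paralog Rpl39l read 22 to 40 on all arrays. Rpl39 and Rps27 were read by dim probe sets of 48 to 134 and 42 to 73, and differed by 0.31 ± 0.42 and 0.33 ± 0.21.

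The members varied less among PU.1 ki/ki than among WT arrays. Over the 76 bright ribosomal protein probe sets, the median SD of log2 values was 0.10 among PU.1 ki/ki arrays and 0.25 among WT arrays. The WT SD was the larger in 69 of 76 (90.8%). Over the 4713 bright probe sets of any gene the medians were 0.28 and 0.56, and the WT SD was the larger in 76.6%. Ribosomal protein probe sets were thus tighter than other bright probe sets in both groups. Their median intensity was 5870.5 to 7986 by array, and the bright probe sets of any gene were not matched to that level. This limits the shares of down probe sets below as well. Of the 76, none was down on a PU.1 ki/ki array or on WT replicate 1. WT replicate 2 had 12 down (15.8%) and WT replicate 3 had 6 (7.89%), against 25% and 24.2% of all bright probe sets on those arrays. Of the 12 on WT replicate 2, 7 were of the large and 5 of the small subunit, and of the 6 on WT replicate 3, 1 and 5.

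**Figure D3:**
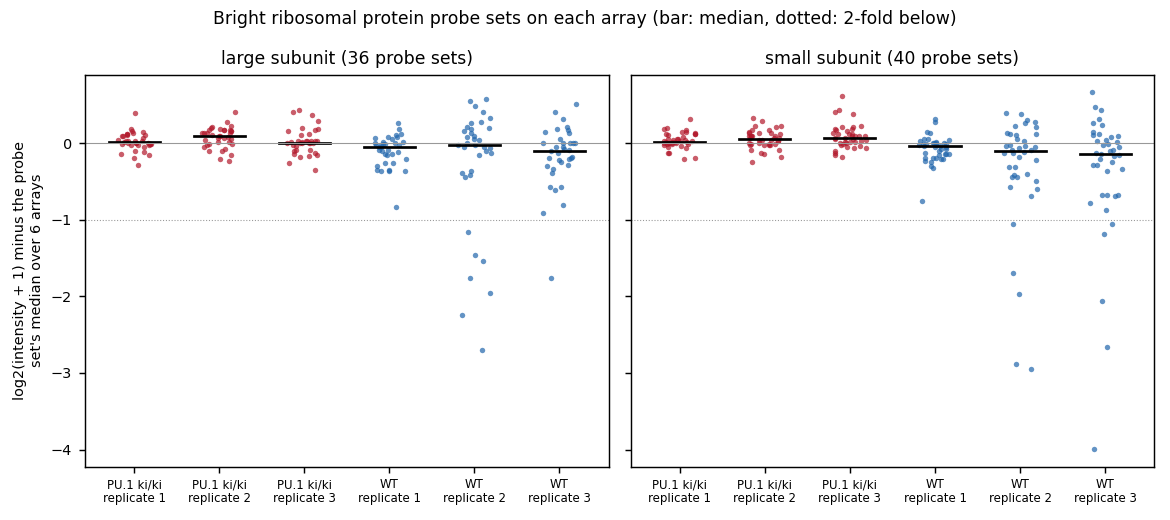
Each point is a bright ribosomal protein probe set (36 of the large, 40 of the small subunit) on an array, as log2(intensity + 1) minus its median over the 6 arrays. PU.1 ki/ki arrays and WT replicate 1 form narrow clouds around 0, while WT replicates 2 and 3 have tails reaching below the dotted line at 2-fold.

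Different probe sets of the same gene mostly did not go down together, with Rps27l as an exception. The 18 down readings fell on 18 different probe sets of 16 genes. In 14 of them the gene had another bright probe set, and in 12 of these 14 no other bright probe set of the gene was down on that array. Rps10 had 5 bright probe sets. Of these, 1 read 497 on WT replicate 2, against a median of 4259 on the other 5 arrays (8.55-fold), while its brightest read 5526 there, against 5023, 5058 and 5283 in PU.1 ki/ki HSCs. For Rps18, a probe set of 11221, 11902 and 10755 in PU.1 ki/ki HSCs read 11205, 1516 and 11375 in WT HSCs. Its other bright probe sets read 8576 and 4340 on WT replicate 2, near their levels elsewhere.

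Rps18, like Rps10 described here after its values were seen, also had a probe set with tight and separate groups, at 5409, 5492 and 5088 in PU.1 ki/ki HSCs, against 4118, 4340 and 4240 in WT HSCs (0.33, adjusted p = 0.565). Rps10 had 2 bright probe sets higher without overlap (0.67 and 1.58, adjusted p = 0.510 and 0.645) and 1 lower without overlap (-0.24, adjusted p = 0.650). The lower one read 1882, 1775 and 1724 in PU.1 ki/ki HSCs, against 2024, 2275 and 2064 in WT HSCs. In 19 genes with several bright probe sets, the range between a gene's probe sets in their deviation from the 6-array median was compared by array. PU.1 ki/ki replicates 1, 2 and 3 had a median range of 0.17, 0.18 and 0.22, against 0.12 on WT replicate 1 and 0.79 and 0.62 on WT replicates 2 and 3. The range exceeded 1, or 2-fold, in 0 genes on the PU.1 ki/ki arrays and WT replicate 1, and in 8 and 7 genes on WT replicates 2 and 3.

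**Figure D4:**
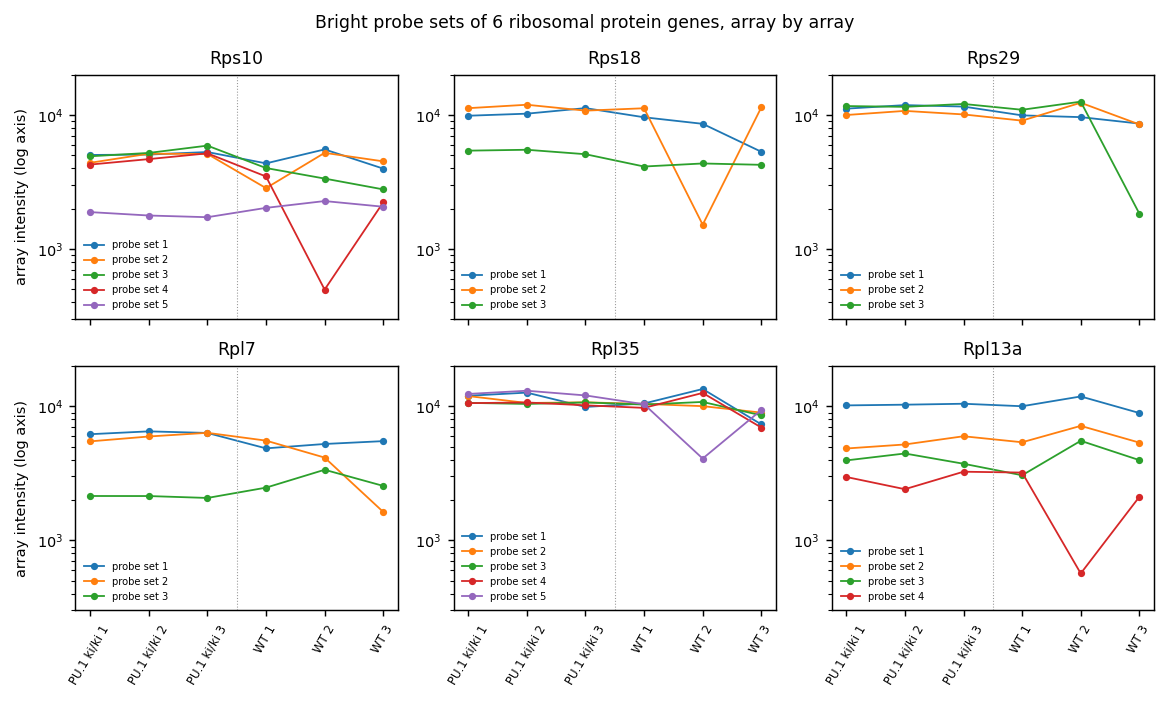
Array intensity on a log axis of every bright probe set of Rps10, Rps18, Rps29, Rpl7, Rpl35 and Rpl13a on the PU.1 ki/ki and then the WT arrays; the genes were chosen after their values were seen. In each gene 1 line dips on WT replicate 2 or 3 to 497 to 4080 while most other lines of that gene stay level.

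Without WT replicates 2 and 3, the median difference was 0.20 for the large subunit, with 23 of 26 genes higher, and 0.12 for the small subunit, with 19 of 23 higher. Without WT replicate 1 these medians were 0.10 and 0.30. The order of the subunits therefore changed with the WT arrays used. The 110 probe sets annotated to several genes had a median of 0.15, with 79 higher and 31 lower, and 20 of them (18.2%) lay wholly higher and 5 (4.55%) wholly lower in PU.1 ki/ki HSCs. Over all probe sets these shares were 6.62% and 5.46%, and among bright ones 8.89% and 5.28%.

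Genes that build or regulate ribosomes were taken from lists chosen for this tissue. Of 16 snoRNP and nucleolar genes 14 were measured, 7 higher and 7 lower (median -0.04). Npm1, the nucleolar chaperone nucleophosmin, read 10177, 10873 and 11759 in PU.1 ki/ki HSCs, against 12072, 2529 and 6077 in WT HSCs, overlapping (0.94 ± 0.59). The snoRNP protein Gar1 read 2800, 3712 and 2226 against 4725, 3777 and 4082 in WT HSCs, lower without overlap (-0.55 ± 0.23, adjusted p = 0.614). Nolc1, a nucleolar chaperone of snoRNPs, was also lower without overlap (-0.92 ± 0.40, adjusted p = 0.618). Of 18 measured RNA polymerase I genes 10 were higher and 8 lower (median 0.12). Polr1c, a subunit shared by polymerases I and III, read 1161, 1191 and 1265 against 1919, 2235 and 2188 in WT HSCs. The groups were far apart on all arrays (-0.81 ± 0.13, adjusted p = 0.4305), and WT replicate 1 was the nearest WT array.

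Assembly factors had differences in both directions. Of 28 large subunit factors 18 were higher and 10 lower (median 0.11), and of 35 small subunit factors 19 and 16 (median 0.01). Nop14, of the small subunit processome, read 613, 615 and 555 in PU.1 ki/ki HSCs, against 372, 464 and 399 in WT HSCs (0.53 ± 0.14, no overlap, adjusted p = 0.508). Of 14 measured elongation factors and other TOP mRNAs 10 were higher and 4 lower (median 0.21). Pabpc1, the poly(A)-binding protein, read 4517, 4659 and 4144 against 2754, 3109 and 2950 in WT HSCs (0.60 ± 0.12, no overlap, adjusted p = 0.463). Nap1l1, a histone chaperone with a TOP mRNA, was lower without overlap (-0.27 ± 0.12, adjusted p = 0.634). In the mTOR list, 7 of 17 were higher and 10 lower (median -0.24), among them Rheb, the GTPase that activates mTOR, at 441, 464 and 651 against 652, 815 and 655 in WT HSCs. Its groups were apart by a single unit of intensity (-0.46 ± 0.21). Fau, which encodes the small subunit protein eS30 as a fusion, read 5341, 5422 and 5888 against 4897, 1375 and 5587 in WT HSCs, low on WT replicate 2 alone (0.73 ± 0.58). Of 9 measured genes of ribosome stress and p53, 6 were higher and 3 lower (median 0.15). Mdm2, the ligase bound by free ribosomal proteins, read 2187, 299 and 682 against 262, 120 and 264 in WT HSCs, higher without overlap and uneven within PU.1 ki/ki (1.91 ± 0.82, adjusted p = 0.617). Of 11 measured housekeeping genes of high level 5 were higher and 6 lower (median -0.05). In all of these lists 0 genes passed the limma threshold. At an unadjusted p under 0.05 there were 4 of 35 small subunit assembly factors, 2 of 18 polymerase I genes, 1 of 14 TOP mRNAs and 1 of 9 stress genes, and 0 among snoRNP genes, large subunit assembly factors, the mTOR list and housekeeping genes. These shares of 11.4, 11.1, 7.14 and 11.1% were near the 8.61% of all named genes.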

How the data were processed

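RNA of 6 samples was measured on 1-colour arrays. The authors deposited 1 intensity per probe set and array, and the submitters' processing notes name RMA. Values are linear whole numbers of 10 to 26199. Any conversion from RMA's log2 scale and the floor are not given in the sources used here, and differences of dim probe sets may be understated. The table has 45101 entries, of which 64 controls entered no test. The platform annotation gave 1 symbol for 34945 probe sets, several for 932 (left unnamed) and none for 9160.

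Values were analysed as log2(intensity + 1) with no further normalization or filter. All 45037 probe sets were fitted on genotype alone with limma 3.58.1 (R 4.3.3), Benjamini-Hochberg adjusted, threshold 0.05. The number of arrays limits the precision. The steps were tested on simulated data. Members, gene lists and tests were chosen with earlier results of these data known. Named were, per subunit, the 5 highest and 5 lowest genes by moderated statistic, the brightest and dimmest, a panel of 27 symbols (20 measured), and the 2 higher and 2 lower members of each other list with the lowest p, some of which are given.

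Replicate numbers were not taken as pairs: deviations of same-numbered arrays correlated at -0.017 to 0.021. Alternatives were another scaling, a filter, a pseudocount of 16, other variance settings, array weights, a replicate block, other probe set choices and arrays left out. Promoter sequences are RefSeq's. Figures were drawn with matplotlib 3.10.9.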

Additional observations from a re-analysis of the deposited data

Results flagged for a closer look

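A control probe set for the 5' part of mouse 18S rRNA, which entered no comparison, read higher on all PU.1 ki/ki arrays than on any WT array. It read 10930, 10164 and 11124 in PU.1 ki/ki HSCs (mean 10740), against 9855, 7298 and 6784 in WT HSCs (mean 7979). WT replicates 2 and 3 were the lowest. The control probe sets for the 3' part (16930 ± 1345 against 16390 ± 1552 in WT, SD, n = 3 each) and the middle (18120 ± 1421 against 21270 ± 3595 in WT) overlapped between groups.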

How the results depend on the processing

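In both subunits 0 probe sets had an adjusted p under 0.05 under every alternative run. The large subunit median of 0.16 was 0.053 with arrays centred, 0.082 (18 higher, 8 lower) after quantile normalization, and 0.10 to 0.19 with an array left out. The small subunit median of 0.24 was 0.165 after quantile normalization, 0.132 with arrays centred, 0.121 without WT replicates 2 and 3, and 0.18 to 0.30 when single arrays were left out. In settings chosen after the data were seen it was 0.179 with group medians and 0.146 with entries of several genes included. Neither median changed sign.

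The count of large subunit probe sets at an unadjusted p under 0.05, 1 as reported, was 0 with arrays centred and with dim probe sets left out, 4 at a pseudocount of 16, 3 with array weights, 4 without WT replicates 2 and 3, and 0 to 6 when single arrays were left out. That of the small subunit, 5 as reported, was 3 after quantile normalization, 2 with arrays centred, 0 with dim probe sets left out, 3 with the replicate block, 2 without probe sets that can read several transcripts, and 0 to 9 when single arrays were left out. It was 0 without PU.1 ki/ki replicate 3, 8 without WT replicate 1 and 9 without WT replicate 2. The large subunit count was 6 without WT replicate 1. Over all probe sets, 15.9% reached that p without WT replicate 1, against 8.28% in the main fit, so the rise was not particular to these genes. Without WT replicate 2 the share over all was 9.74%, and without PU.1 ki/ki replicate 3 it was 5.85%. With arrays centred it was 8.27%, and with dim probe sets left out 7.55%. The cause of these changes was not tested. The replicate block shares only numbers and changed no adjusted call.

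Of the 39 named genes, with arrays centred Rpl11 was at -0.076, Rpl38 at -0.084, Rplp2 at -0.034, Rps16 at -0.101 and Rps3a1 at -0.068. Without WT replicates 2 and 3, Rpl14 was at 0.723, Rpl37 at 0.516, Rpl39l at -0.072, Rpl3l at 0.105, Rpl41 at 0.023, Rpl7l1 at -0.094 and Rps28 at 0.004. When single arrays were left out, sign changes gave Rpl11 -0.03 to 0.11, Rpl14 -0.54 to 0.14, Rpl37 -0.38 to 0.37, Rpl38 -0.047 to 0.118, Rpl39 -0.10 to 0.63, Rpl41 -0.093 to 0.076, Rpl7l1 -0.047 to 0.28, Rplp2 -0.057 to 0.157, Rps16 -0.053 to 0.122, Rps2 -0.093 to 0.005, Rps24 -0.049 to 0.597, Rps25 -0.877 to 0.085, Rps27l -0.14 to 1.08 and Rps3a1 -0.037 to 0.093. The other named genes kept their direction under the alternatives run.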
